A study of Homo sapiens with 3 samples.

Results

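Vesicle coat genes were examined in cap analysis of gene expression (CAGE) data from EBC-1, an established cell line of human lung squamous cell carcinoma. The 53 genes were fixed by symbol: 3 clathrin chains, 23 subunits of the adaptor complexes AP-1 to AP-4, 3 GGA adaptors, 9 coatomer (COPI) subunits, 10 COPII genes and 5 ARF GTPases. All 53 were found among the 13479 genes of the deposited table, and 51 reached a mean of at least 5 CPM (tags scaled to the library total) over the libraries. The 2 below that level were AP4S1 and AP4B1. Cells had been electroporated with 600 pmol of a control siRNA, of RAB11A siRNA 1 or of RAB11A siRNA 2. The labels place this 72 h after plating and give no interval from electroporation to RNA extraction. Each of the 3 groups is 1 library, so differences have no check from replicates, and every standard error or interval covers counting error only. The groups share the cell line and the electroporation, the controls carry an siRNA too, and RAB11A is depleted transiently by RNA interference in each RAB11A group.

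Vesicles between membranes are shaped by coats. COPII forms at exit sites of the endoplasmic reticulum, where the GTPase SAR1 recruits an inner layer of SEC23 and SEC24, which bind cargo, and an outer cage of SEC13 and SEC31. COPI, recruited by ARF GTPases, carries material back to the endoplasmic reticulum and between Golgi cisternae. Clathrin acts later, at the trans-Golgi network, endosomes and plasma membrane, through adaptors that recognise sorting signals in cargo tails. RAB11A, the siRNA target, is a GTPase of the recycling endosome, a compartment where AP-1 and clathrin also work.

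RAB11A stood at 135 CPM in the control library, 7.48 with siRNA 1 and 22.7 with siRNA 2, so each labelled library showed less of its target. The spacing of CPM values put each library at about 24999950 tags, at which 5 CPM rests on 125 tags. How these totals came to be equal was not given in the sources used here. Of the 10 squamous epithelial markers looked up, SFN, PERP and S100A2 were in the table, at 33.2, 140.5 and 23.6 CPM in the control, and the other 7, among them TP63 and KRT5, were not listed. Of 17 genes that mark other lung cells (fibroblasts, endothelium, leukocytes, alveolar epithelium), 3 were listed. COL1A1 and COL1A2 stayed between 1.04 and 2.28 CPM, and CD68, a lysosomal glycoprotein used as a macrophage marker, stood at 45.2, 21.1 and 31.4 CPM for control, siRNA 1 and siRNA 2. The part of these markers in the results below was not tested. In a bulk library, fewer cells with a transcript and less of that transcript per cell cannot be told apart.

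The coat genes were well expressed and, like most genes past the filter, moved little between the libraries. Their median level was 71.0 CPM in the control library, against 21.2 over all genes. No member was 2-fold from control, where the log2 ratio of (CPM + 1) is at least 1, with either siRNA. Among all 10788 genes past the filter, 0.89% were 2-fold apart in either direction with siRNA 1 and 0.463% with siRNA 2. The highest library was less than 1.5-fold above the lowest for 48 of the 51 members, or 94.1%, against 91.3% of all genes. The median log2 ratio over members was -0.09 for siRNA 1 and -0.13 for siRNA 2, beside -0.03 and -0.04 over all genes. AP1M2, an epithelial AP-1 subunit, had the highest log2 ratio with each siRNA. Its libraries spanned 1.89-fold, beside 1.69-fold for COPZ2 and 1.51-fold for COPG1, the other members past 1.5-fold. Several COPI and COPII genes formed the lower end.

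**Figure D1:**
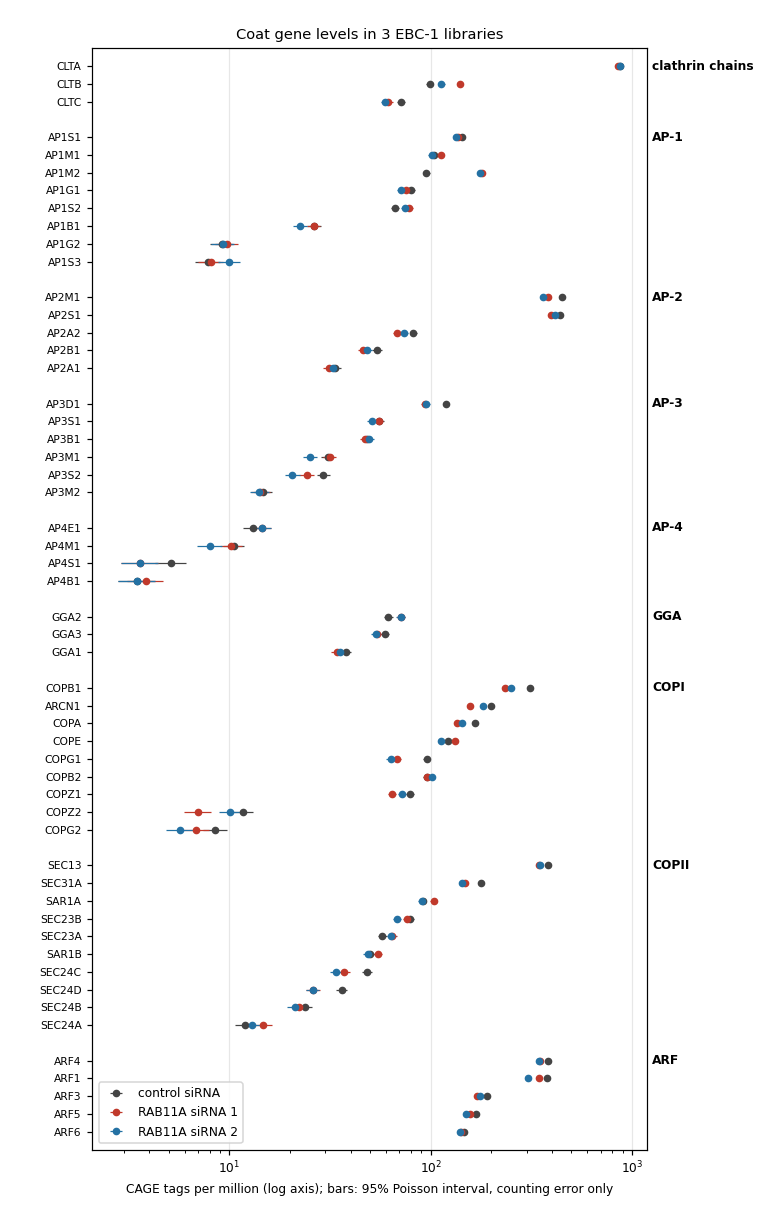
Level of each of the 53 coat genes in CPM (log axis) in the control, siRNA 1 and siRNA 2 libraries, 1 point per library, with 95% Poisson intervals. CLTA is the highest at 875 CPM in the control, AP4B1 the lowest at 3.48, and AP1M2 is the gene whose siRNA points lie farthest to the right of the control point.

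A smaller difference, a log2 ratio of at least 0.3 (a fold of 1.23), was also counted. With siRNA 1, 2 of 51 members were higher (3.92%, against 11.5% of all genes) and 7 were lower (13.7%, against 13.4%). With siRNA 2, 2 members were higher (3.92%, against 7.06%) and 11 were lower (21.6%, against 12.9%). With siRNA 1 the lower share was therefore that of the background. With siRNA 2 it was above it in the deposited scaling, but under TMM or median-ratio scaling 6 members were lower, or 11.8%, against 9.35% and 9.29% of all genes. Those scalings also put 9.37% and 9.44% of all genes higher, so over all genes the excess of lower genes was absent there. The members' median with siRNA 2 stayed at -0.09 under either scaling, beside -0.0008 (TMM) and 0.0005 (median-ratio) over all genes. With siRNA 1 it was -0.06 under either, beside -0.004 and -0.006. Both comparisons use the same control library, so they are not independent of each other.

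CAGE tags were deep enough for smaller differences between these libraries to exceed counting error. An exact two-sided binomial test on tags, adjusted over all genes, compares the libraries and not the conditions. It called 10 members higher with siRNA 1 than control (19.6%, against 23.3% of all genes) and 23 lower (45.1%, against 29.1%). For siRNA 2 it called 6 higher (11.8%, against 18.4%) and 29 lower (56.9%, against 29.9%). This test reaches smaller differences where a gene has more tags, and the members' median level was above that of all genes. More tags bear on calls in both directions, and the shares of members called higher were below those of all genes. The part of depth in these shares was not tested. The binomial test was run in the deposited scaling alone, where more of all genes were lower than higher.

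**Figure D2:**
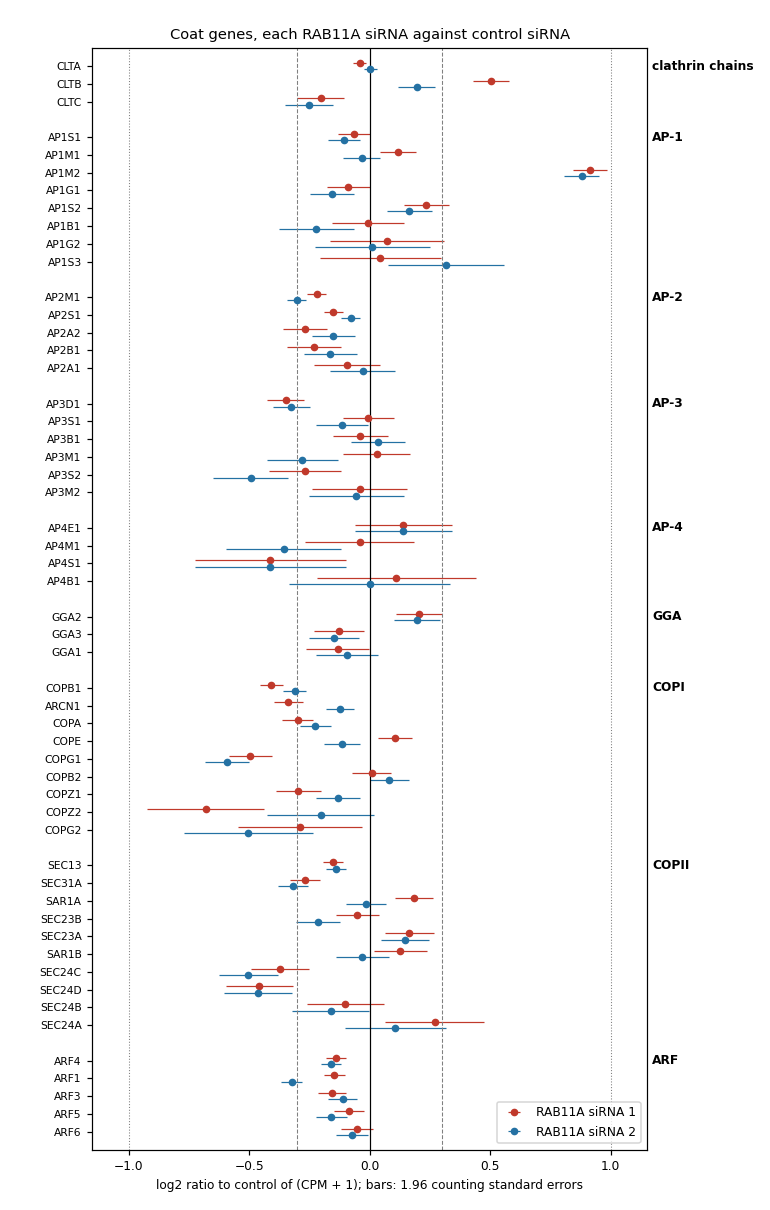
Log2 ratio to control of (CPM + 1) for each coat gene with siRNA 1 (red) and siRNA 2 (blue); bars are 95% counting intervals, dashed lines mark ±0.3 and dotted lines 2-fold. AP1M2 stands apart at 0.91 and 0.88. COPZ2 is lowest with siRNA 1 at -0.68, and COPG1, SEC24C and SEC24D lie between -0.37 and -0.59 with each siRNA.

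AP-1 sorts cargo between the trans-Golgi network and endosomes, and its medium (mu) chain reads tyrosine-based signals. AP1M1 encodes mu1A, found in most cells, and AP1M2 encodes mu1B, restricted largely to epithelia, where it directs proteins to the basolateral membrane, in part through recycling endosomes. AP1M2 (ENSG00000129354) lies at chr19:10683347-10697991 on the minus strand of GRCh37. It had 94.96 CPM in control cells (2374 tags), 179.9 with siRNA 1 (4498 tags) and 176 with siRNA 2 (4388 tags). Both siRNA libraries were thus higher and close to each other. The log2 ratios to control were 0.91 and 0.88, each with a counting standard error of 0.036, and that between the siRNAs was 0.04 with 0.030. Of all 10788 genes, 54 had a higher ratio with siRNA 1 and 27 with siRNA 2. AP1M1 was at 103, 112 and 101 CPM. AP1M2 therefore gave 47.9% of the tags of both mu genes in the control (95% exact binomial interval 46.5 to 49.3), 61.5% with siRNA 1 (60.4 to 62.7) and 63.5% with siRNA 2 (62.3 to 64.6).

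The start region of AP1M2 is shown because this gene had the largest difference among the members. The window covers 250 bases before and 50 after the RefSeq start (GRCh38.p14 table), matches GRCh37 at chr19:10697939-10698238 on the minus strand, and is written 5′ to 3′. Capitals mark the E-box letters CACCTG, which were searched for only after this window had been read.

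AP1M2: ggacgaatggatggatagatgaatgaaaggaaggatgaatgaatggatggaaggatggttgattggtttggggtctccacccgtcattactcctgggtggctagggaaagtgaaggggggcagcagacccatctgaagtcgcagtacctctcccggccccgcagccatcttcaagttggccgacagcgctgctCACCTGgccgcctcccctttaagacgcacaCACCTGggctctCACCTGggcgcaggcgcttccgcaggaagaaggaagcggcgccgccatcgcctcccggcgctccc

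The 3 matches start 57, 27 and 15 bases before the start. CACCTG on either strand was found for 23.1% of the 8835 distinct gene symbols of the deposited table that have a window (table genes below, 8897 rows of that table since some symbols repeat) and of 17 of 46 members (37.0%). At least 3 matches in 1 window were found for 0.396% of those genes, and CLTB was among them. The letters were chosen from the AP1M2 window, so this share cannot be read as a measure of its rarity. A match of letters is a description and says nothing of binding.

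The other AP-1 subunits stayed closer to control. Their tags summed to 436 CPM in the control, 447 with siRNA 1 and 422 with siRNA 2 without AP1M2. Sums here and below use the deposited scaling only, and their intervals do not cover a change of scaling. With AP1M2 the AP-1 sum was 118% of control with siRNA 1 (95% interval 115% to 121%) and 112% with siRNA 2 (110% to 115%). AP1S2, a small (sigma) chain, stood at 66.4, 78.3 and 74.6 CPM, while AP1S1, the more abundant sigma chain, stood at 143, 137 and 133. AP1S2 thus supplied 31.7% of the tags of the pair in the control, 36.4% with siRNA 1 and 35.9% with siRNA 2, with control and siRNA intervals that do not overlap. AP1S3 was low, at 7.80, 8.08 and 9.96 CPM, and its log2 ratio of 0.32 with siRNA 2 had a counting standard error of 0.124. The large chains AP1G1 (79.8, 75.0 and 71.5 CPM) and AP1B1 (26.3, 26.2 and 22.4 CPM) were lowest with siRNA 2. AP1G2, a minor gamma chain, held 9.20, 9.72 and 9.28 CPM.

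Clathrin triskelia consist of heavy chains (CLTC) and light chains (CLTA, CLTB). CLTA had the highest level of all members, at 875, 850.5 and 876 CPM. CLTB stood at 98.7 CPM in the control, 140.4 with siRNA 1 and 113 with siRNA 2, and the 3 Poisson intervals do not overlap. Its log2 ratios were 0.50 (counting standard error 0.038) and 0.19 (0.039), and siRNA 1 was 0.31 (0.036) above siRNA 2. CLTB is thus the one clathrin gene that differed between the siRNAs by more than 0.3, a call lost under TMM and median-ratio scaling. Its share of light-chain tags was 10.1% in the control, 14.2% with siRNA 1 and 11.4% with siRNA 2. CLTC was lower, at 71.0, 61.6 and 59.5 CPM. The summed clathrin tags, which CLTA dominates, were 101% and 100.4% of control.

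AP-2 is the adaptor of clathrin-coated pits at the plasma membrane. All 5 of its subunits had values below control with each siRNA, with median log2 ratios of -0.22 and -0.15. Of all 10788 genes, 5889 were below control with siRNA 1 and 6277 with siRNA 2. AP2M1, the mu chain that binds cargo such as the transferrin receptor, stood at 447, 384 and 363 CPM, and its log2 ratio with siRNA 2 was -0.30 (-0.26 under other scalings). AP2S1 stood at 439, 395 and 415 CPM. The large chains were far lower: AP2A2 at 82.2, 68.1 and 74.0, AP2B1 at 54.2, 46.1 and 48.3, and AP2A1 at 33.6, 31.4 and 32.9 CPM. The sign of AP2A1 with siRNA 2 turned under other scalings. A CAGE tag marks a capped 5′ end, so CPM was compared between genes without dividing by length, and AP2M1 was 13.3-fold above AP2A1 in the control.

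AP-3 carries cargo from endosomes to lysosomes and related organelles. AP3D1, its delta chain, was the most abundant, at 119, 93.6 and 95.2 CPM, which gives -0.35 and -0.32 on the log2 scale with a counting error of 0.039. With siRNA 2 its ratio was -0.28 under TMM scaling. AP3S2, a sigma chain, stood at 29.4, 24.2 and 20.6 CPM (-0.27 with 0.076 and -0.49 with 0.080). Its locus overlaps a listed readthrough gene on the same strand, C15orf38-AP3S2, and the division of tags between them was not given in the sources used here. AP3M1, a mu chain, was at 30.8, 31.5 and 25.2 CPM, low in the siRNA 2 library alone. AP3S1 at 55.4, 55.2 and 51.2, AP3B1 at 48.4, 47.1 and 49.6 and AP3M2 at 14.7, 14.3 and 14.1 CPM had log2 ratios between -0.11 and 0.03. Summed AP-3 tags were 89.2% of control with siRNA 1 (95% interval 86.3% to 92.2%) and 85.8% with siRNA 2 (83.0% to 88.7%).

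AP-4 sorts cargo at the trans-Golgi network and was the least expressed complex. AP4E1 stood at 13.1, 14.6 and 14.6 CPM and AP4M1 at 10.5, 10.2 and 8. AP4M1 was lower with siRNA 2 at -0.36 (counting standard error 0.122). AP4S1, at 5.12, 3.60 and 3.60 CPM, and AP4B1, at 3.48, 3.84 and 3.48, rested on 87 to 128 tags per library and entered no count of log2 ratios. Among the GGA proteins, which bind ARF and sort mannose 6-phosphate receptors, GGA2 was higher at 61.7, 71.3 and 70.9 CPM. GGA3, at 59.2, 54.1 and 53.4, and GGA1, at 37.8, 34.4 and 35.4, were below control with each siRNA. Summed GGA tags were 101% of control with each siRNA.

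COPI tags summed to 82.6% of control with siRNA 1 (95% interval 81.2% to 84.1%), the lowest of the coat groups, and to 86.4% with siRNA 2 (84.9% to 87.9%), where AP-3 was at 85.8%. Its median log2 ratio was -0.30 with siRNA 1 and -0.20 with siRNA 2. COPG1 (ENSG00000181789, chr3:128968449-128996616, plus strand), the gamma subunit of the adaptor-like layer, stood at 95.8 CPM in the control, 67.7 with siRNA 1 and 63.2 with siRNA 2. That left 70.6% and 66.0% of the control level, with log2 ratios of -0.50 (counting standard error 0.045) and -0.59 (0.046). Its paralog COPG2 stood at 8.52, 6.80 and 5.72 CPM and held 8.17% to 9.13% of the gamma tags in the 3 libraries.

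COPB1, the beta subunit, was the most abundant coatomer gene, at 311, 235 and 251 CPM (log2 ratios -0.41 and -0.31, the second -0.27 under TMM scaling). The gene overlaps PSMA1 on the same strand. ARCN1, the delta subunit, stood at 199, 157 and 183 CPM and was lower with siRNA 1 at -0.34 (0.031) than with siRNA 2 at -0.12 (0.029). COPA, the alpha subunit of the outer layer, stood at 167, 135 and 142 CPM. COPZ1, the main zeta subunit, stood at 79.0, 64.2 and 72.0. These 4 genes shared the order control, siRNA 2, siRNA 1 from high to low, as did COPZ2 (below). For COPA the log2 ratio between the siRNAs was -0.07 (counting standard error 0.034), which the binomial test on tags did not call.

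COPB2 and COPE, which with COPA form the outer layer, did not follow. COPB2, the beta-prime subunit, was at 95.8, 96.3 and 101 CPM, and COPE, the epsilon subunit, at 122, 132 and 113, above control with siRNA 1 and below it with siRNA 2. COPZ2, a second zeta gene, had the lowest log2 ratio of any member, at 11.8, 6.96 and 10.1 CPM (-0.68 with siRNA 1, counting standard error 0.123, and -0.20 with siRNA 2). Its 3 values are identical to those listed for MIR152, a microRNA gene inside it, so the tags cannot be divided between them.

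**Figure D3:**
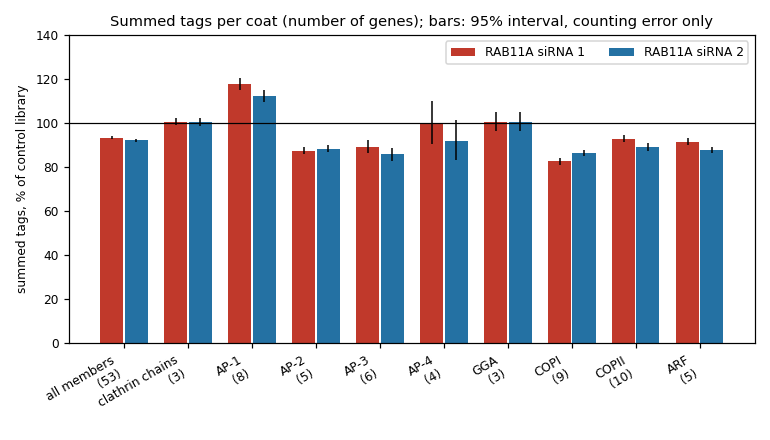
Summed tags of each coat group as a percentage of the control library in the deposited scaling, with 95% intervals for counting error. The number of genes is in brackets. AP-1 is above 100% through AP1M2, COPI is lowest with siRNA 1 at 82.6%, AP-3 (85.8%) and COPI (86.4%) are lowest with siRNA 2, and clathrin and GGA sums lie at about the control level.

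COPII genes differed from each other, also among paralogs of the same subunit. SEC24 binds cargo, and mammals have 4 forms. SEC24C stood at 48.4, 37.2 and 33.9 CPM (log2 ratios -0.37 and -0.50) and SEC24D at 36.1, 26.0 and 26.0 (-0.46 with either siRNA, counting error 0.072), so this related pair was low with each siRNA. SEC24B, at 23.8, 22.2 and 21.2, and SEC24A, at 12, 14.7 and 13.0 CPM, stayed within 0.3 of control. SEC24B gave 66.5% of the tags of this second pair in the control, 60.2% with siRNA 1 and 62.0% with siRNA 2. The SEC24C and SEC24D tags together came to 84.6, 63.2 and 59.8 CPM, with SEC24D giving 41.2% to 43.4% of them.

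SEC23 activates the SAR1 GTPase. SEC23B stood at 79.4, 76.6 and 68.2 CPM and SEC23A at 57.4, 64.5 and 63.7. The share of SEC23B in the pair was 58.0% in the control (95% interval 56.3 to 59.7), 54.3% with siRNA 1 (52.6 to 55.9) and 51.7% with siRNA 2 (50.0 to 53.4). SAR1A, at 91.2, 104 and 90.3, and SAR1B, at 50.0, 54.7 and 48.9 CPM, were higher with siRNA 1 and near control with siRNA 2, where their direction turned under other scalings. Of the outer cage, SEC31A stood at 179, 148 and 143 CPM (-0.27 and -0.32, the second -0.27 under other scalings). SEC13, also a subunit of the nuclear pore, stood at 384, 345 and 348 (-0.15 and -0.14). COPII sums were 92.9% and 89.1% of control.

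ARF GTPases recruit COPI, AP-1, AP-3, AP-4 and GGA proteins to membranes, and ARF6 acts at the cell surface. All 5 values were below control with each siRNA, as were 5889 and 6277 of all 10788 genes with siRNA 1 and siRNA 2. ARF4 stood at 384, 349 and 344 CPM and ARF1 at 380.1, 343 and 304. ARF1 with siRNA 2 had the lowest log2 ratio of the family, -0.32 (counting standard error 0.022), or -0.28 under other scalings. ARF3 was at 190.3, 171 and 176, ARF5 at 167, 157 and 149.5 and ARF6 at 147, 141 and 139 CPM. In the control, ARF4 and ARF1 did not differ beyond their Poisson intervals, and both were above ARF3, ARF5 and ARF6 in that order.

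Shares were taken for 17 paralog pairs. For GGA3 with GGA1, SAR1B with SAR1A, SEC24D with SEC24C, SEC24B with SEC24A, COPG2 with COPG1, AP1G2 with AP1G1, AP2A2 with AP2A1, AP3M2 with AP3M1 and ARF5 with ARF4, intervals of the share overlapped among all 3 libraries. Such overlap is not a test of a difference. The log2 ratio of SEC24B minus that of SEC24A, without pseudocount, was -0.40 with siRNA 1 (counting standard error 0.141). With siRNA 2 it was -0.28 (0.144). ARF3 gave 33.4% of ARF1 and ARF3 tags in the control, 33.2% with siRNA 1 and 36.7% with siRNA 2, so here the siRNA 2 library stood apart. AP3S2 gave 34.6%, 30.5% and 28.7% of its tags with AP3S1, and the control interval overlapped neither siRNA interval. COPZ2 gave 13.0%, 9.78% and 12.3% with COPZ1, where the control and siRNA 1 intervals did not overlap. AP2B1 gave 67.3%, 63.8% and 68.3% with AP1B1, where only the 2 siRNA intervals did not overlap. The shared loci of AP3S2 and COPZ2 limit their shares.

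**Figure D4:**
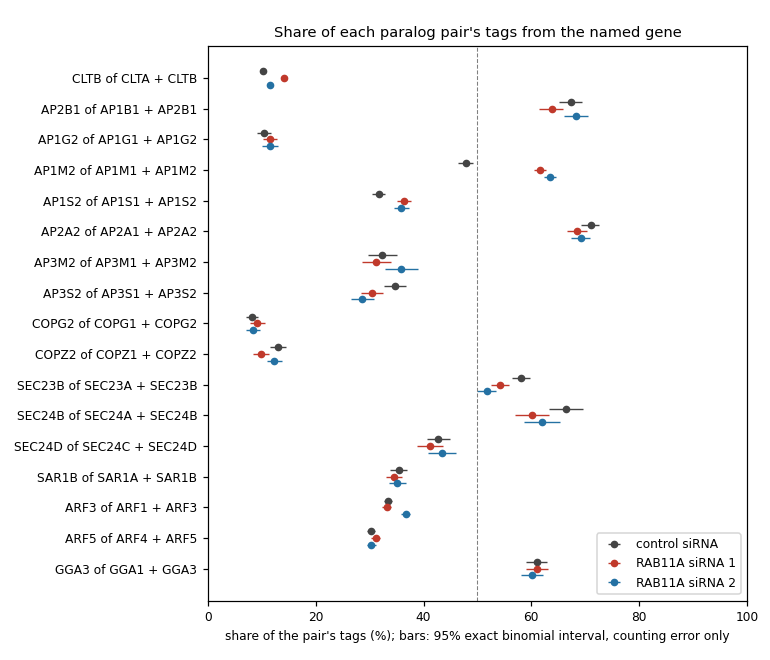
Share of each paralog pair's tags that came from the named gene, in percent, for the 3 libraries, with 95% exact binomial intervals; the dashed line is 50%. AP1M2 is the gene that crosses the line, from 47.9% in the control to 61.5% and 63.5%.

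The siRNA libraries were also compared with each other, which uses no control. No member was 2-fold apart, against 0.352% of all genes. CLTB (0.31), AP3M1 (0.31) and AP4M1 (0.32) were at least 0.3 higher with siRNA 1, or 5.88% of members against 7.63% of all genes, and none of the 3 kept this under TMM or median-ratio scaling. COPZ2 was lower at -0.48 (counting standard error 0.126), or 1 of 51 members against 4.7% of all genes. The binomial test on tags called 12 members higher (23.5%, against 21.4%) and 7 lower (13.7%, against 15.4%), shares near those of all genes. AP1M2, COPG1 and SEC24D, among the genes farthest from control, differed between the siRNAs by 0.04, 0.10 and 0.00.

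Coat promoters were then searched for short motifs known from secretory stress. RefSeq windows of 300 bases were at hand for 46 of the 53 members, and AP1M1, AP3B1, AP3D1, AP3M2, ARF4, GGA2 and SEC24D had no entry. The letters ACGTGGC, known as a Golgi stress response element, were found on either strand for 13 of 46 members (28.3%), against 5.87% of the 8835 table genes and 3.22% of all 35116 windows. TGACGTGG, the core of the unfolded protein response element bound by XBP1 and ATF6, was found for 6 members (13.0%), against 1.27% and 0.729%. These 2 motifs overlap by 6 letters, so ARF1, SEC23A and SEC24A hold both at 1 place. COPB2 holds both at separate places. The members were then divided, after these counts were seen, into COPI, COPII and ARF genes and the rest. ACGTGGC was found for 11 of 22 in the former (50.0%) and for 2 of 24 clathrin, AP and GGA genes (8.33%), AP1S2 and AP3S1. TGACGTGG was found for 6 of 22 and 0 of 24.

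Matches of the COPI, COPII and ARF genes are shown because most of those found lie in these genes, a grouping made with the counts known. Each line is read along the strand that carries the motif, 5′ to 3′, with 10 bases on each side. Capitals mark the motif, and coordinates of the whole line are GRCh37. COPB2, SEC24A and SEC31A have further matches, of which 1 is shown for each gene.

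ARF1, TGACGTGG, chr1:228270383-228270410, plus: ccggaggcgcTGACGTGGccgccgtcag
COPA, TGACGTGG, chr1:160313018-160313045, minus: agagggtcgcTGACGTGGaggcgtccga
COPB1, TGACGTGG, chr11:14521388-14521415, plus: agtccttggcTGACGTGGaagggggtgg
COPB2, TGACGTGG, chr3:139108475-139108502, plus: tcagactgacTGACGTGGaacttccggg
SEC23A, TGACGTGG, chr14:39572426-39572453, minus: cccctcctctTGACGTGGcagaggcggc
SEC24A, TGACGTGG, chr5:133984286-133984313, plus: tgagagtcggTGACGTGGcggcgaggcc
ARCN1, ACGTGGC, chr11:118443096-118443122, plus: ccggttgaagACGTGGCttggggccgc
COPG1, ACGTGGC, chr3:128968431-128968457, plus: gcgctgggcgACGTGGCcagtcggggc
SAR1A, ACGTGGC, chr10:71930455-71930481, plus: accgcgcgagACGTGGCagcgccggaa
SEC13, ACGTGGC, chr3:10362757-10362783, plus: caggtctcggACGTGGCagctcccggc
SEC24C, ACGTGGC, chr10:75504048-75504074, plus: cgaaatgcagACGTGGCagaagaagtg
SEC31A, ACGTGGC, chr4:83812345-83812371, plus: ttccgttccaACGTGGCagccgcagcc

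COPG1 carries its match 8 bases before the RefSeq start, ARF1 16 bases before it and SEC23A 4 bases before it, while the match of COPA begins 6 bases into the transcribed part. COPZ2 holds ACGTGGC too, but its window was not placed on GRCh37 by an exact match and is not shown. Ratios of genes with and without these letters were set side by side. The median log2 ratio of the 13 members with ACGTGGC was -0.15 for siRNA 1 and -0.12 for siRNA 2, and the 31 others with a window and past the filter had -0.09 and -0.15. The 6 with TGACGTGG had -0.07 with each siRNA, and the 38 without it had -0.09 and -0.14. Over all genes past the filter with a window, the 471 with ACGTGGC had -0.06 and -0.07 and the 7134 without it -0.03 and -0.05. The 99 with TGACGTGG had -0.06 and -0.07 and the 7506 without it -0.03 and -0.05. SEC24A, with both motifs, was above control while COPG1 was below it.

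**Figure D5:**
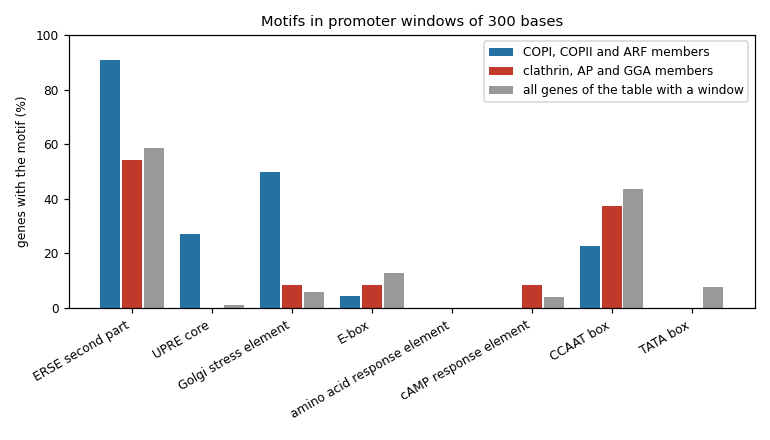
Percentage of genes whose RefSeq promoter window of 300 bases holds each motif on either strand, for COPI, COPII and ARF members, for clathrin, AP and GGA members and for all table genes with a window. The Golgi stress element stands at 50.0%, 8.33% and 5.87%, and the UPRE core at 27.3%, 0% and 1.27%.

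The other motifs were less uneven. CCACG, the second part of the endoplasmic reticulum stress element, lies within both longer motifs when read on the opposite strand. It was found for 71.7% of members against 58.6% of table genes, with 20 of 22 COPI, COPII and ARF genes among them. CCAAT was found for 30.4% against 43.7%, the E-box CACGTG for 6.52% against 13.0%, and the cAMP response element TGACGTCA for AP2B1 and CLTB alone (4.35% against 3.95%). Neither TATAAA, found for 7.65% of table genes, nor the amino acid response element TGATGCAAT, found for 0.158%, occurred in a member window.

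Both siRNAs were searched against the members, to show which carry a possible partial match. The sense strands are given 5′ to 3′ with the 7 bases in capitals that a transcript would share to pair with guide positions 2 to 8.

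siRNA 1: gcauccagguuGAUGGAAa
siRNA 2: agcaagagcuuUUGCAGAa

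No member's canonical transcript held all 19 bases of either strand. The siRNA 1 site occurred in the canonical 3′ UTR of 6 of 53 members (11.3%, against 14.6% of 11230 genes): AP1S3, AP2A2, AP4E1, GGA2, SAR1B and SEC24C. The siRNA 2 site occurred in 8 (15.1%, against 16.0%): AP1G1, AP1M1, AP1S1, AP3S2, COPG1, SAR1A, SEC23A and SEC24A. The part of these sites in the results was not tested.

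Partners of the coats were read from lists chosen by function. The counts below use the log2 ratio of 0.3, for which the shares over all genes were 11.5% higher and 13.4% lower with siRNA 1 and 7.06% and 12.9% with siRNA 2. Of 38 proteins of clathrin-mediated endocytosis, 26 passed the filter, and 2 were at least 0.3 higher and 3 lower with siRNA 1, and 2 and 4 with siRNA 2. Their medians were -0.03 and -0.06, near those of all genes. AAK1, a kinase of AP-2, stood at 21.1, 13.3 and 16.6 CPM, and EPS15, a pit scaffold, at 25.7, 20.1 and 18.4. BMP2K, a relative of AAK1, was higher, at 10.4, 15.2 and 15.1. HIP1R, which links pits to actin, stood at 16.2, 13.5 and 12.1.

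Partners at the trans-Golgi network and endosome had medians of -0.14 and -0.16. Of 19 genes past the filter, 1 was higher and 4 lower with siRNA 1, and 0 and 2 with siRNA 2. Over all genes 13.4% and 12.9% were lower. IGF2R and M6PR, the mannose 6-phosphate receptors that GGA and AP-1 carry, stood at 122, 78.0 and 106 CPM and at 238, 183 and 198. AP5Z1, a subunit of AP-5, stood at 40.6, 31.1 and 28.6, and RUSC2, a partner of AP-4 vesicles, at 31.3, 24.1 and 25.8.

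Among ARF exchange factors and GTPase-activating proteins, 25 of 36 passed the filter, with medians of -0.04 and -0.09. One was at least 0.3 higher and 2 lower with siRNA 1, and 0 and 4 with siRNA 2, beside 13.4% and 12.9% of all genes lower. ARFGAP1, which acts on ARF1 in COPI coats, stood at 41.3, 28.2 and 34.1 CPM, and ARFGAP3 at 41.2, 33.6 and 32.4. ACAP2, which acts on ARF6, stood at 97, 76.3 and 80.7. GIT1, another such protein, stood at 28.3, 24.2 and 16.8, low with siRNA 2.

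Assembly factors of COPII had medians of -0.16 and -0.13 over 21 genes past the filter, with none higher by 0.3, 5 lower with siRNA 1 (against 13.4% of all genes) and 4 lower with siRNA 2 (against 12.9%). MIA2 and CTAGE5, which carry identical values and name 1 locus of an exit-site cargo receptor, stood at 50.4, 34.0 and 38.4 CPM and count as 2 of these. CREB3L2, a transcription factor that drives SEC23A, stood at 26.8, 17.8 and 23.8. STX5, a SNARE of the early Golgi, stood at 38.6, 30.9 and 28.2. Of 29 cargo receptors and cycling proteins, with medians of -0.05 and -0.04, 1 was higher and 3 lower with siRNA 1, and none differed by 0.3 with siRNA 2. TMED2, a p24 cargo receptor and abundant, stood at 623, 495 and 507 CPM, and TMED8 at 14.7, 9.32 and 12.5. LMAN1, a lectin of COPII vesicles, stood at 87.7, 66.4 and 79.0, while TMED1 was higher at 15.3, 20.4 and 16.8.

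Some values rest on loci where tags may be shared. For 11 members at least 1 annotated start, over its first 50 bases, matched another place in the genome with 2 or fewer mismatches: AP1G2, AP1S2, AP2A1, AP2S1, AP3S1, AP4S1, COPB2, GGA1, SAR1A, SAR1B and SEC23A. Whether tags came from these starts was not tested. AP1M2, CLTB, COPG1, COPB1, SEC24C and SEC24D had no such start. On the same strand, 7 members overlap another gene of the deposited table: AP1S1, AP3S2, ARF1, COPB1, COPZ2, GGA2 and SEC31A. How tags were divided there was not given in the sources used here.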

How the data were processed

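CAGE tags had been counted per gene and strand in 3 EBC-1 libraries, and the authors deposited CPM in 1 table with a column per library, matched by name. Build hg19, BWA and HISAT2 are listed in the submitters' processing notes, with neither role nor version. How tags were assigned to genes, and multiply mapped reads treated, was not given in the sources used here. Each listed gene reached at least 0.52 CPM in 1 library. Deposited CPM were whole multiples of 1 tag within 0.005 CPM for 99.99% to 100% of values per library, at about 24999950 tags each, and the recovered tags gave Poisson and exact binomial 95% intervals. Tags summed over genes came to between 25137457 and 25204585, above that total, and identical values at overlapping genes show that some tags are listed for more than 1 gene. A value of 0 tags would allow 0.12 CPM (3 tags).

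Log2 ratios of (CPM + 1) were taken for the 10788 genes averaging 5 CPM or more, and a pseudocount of 1 CPM understates ratios of low genes. With 1 library per group no replicate test was possible. An exact two-sided binomial test on tags with Benjamini-Hochberg adjustment over all 10788 genes served as an alternative at 0.05, calling 2518 genes higher and 3143 lower with siRNA 1, 1983 and 3230 with siRNA 2, and 2312 and 1656 between them. Counts and the binomial test were tested on simulated data. Every member could be named. Of other genes, RAB11A, markers and 4 genes per list were named. Those 4 had the largest absolute mean of both log2 ratios to control, among genes averaging 10 CPM or more. The members and lists were chosen with earlier results of these data known.

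Loci, starts and transcripts came from GENCODE lifted to GRCh37, where all 53 members were found by identifier, and promoter windows from RefSeq (GRCh38.p14), matched by symbol and placed on GRCh37 by exact match. A symbol with several windows counted once. Tools were Python 3.11.15 with pandas 2.3.3, matplotlib 3.10.9, pysam 0.24.0, numpy 2.4.6 and scipy 1.17.1, samtools 1.23.1, minimap2 2.31 (short-read mode), R 4.3.3 and edgeR 4.0.16 (TMM).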

Additional observations from a re-analysis of the deposited data

How the results depend on the processing

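A pseudocount of 0.5 or 5 CPM, a filter at 1 or 20 CPM or none, TMM and median-ratio scaling and counting identical genes once were tried, and leaving out members with a start that matches elsewhere was added after seeing the data. Under all of these no member was 2-fold apart in any comparison, and the members' median stayed between -0.13 and -0.06 with siRNA 1, between -0.16 and -0.09 with siRNA 2 and between 0.01 and 0.04 between the siRNAs. Counts at 0.3 depended on the setting. Members lower with siRNA 2 numbered 6 under TMM and under median-ratio scaling, against 11, because both scalings shift every siRNA 2 ratio to control upward. Members higher with siRNA 2 numbered 1 under either the 20 CPM filter or the 5 CPM pseudocount, against 2, each losing the low AP1S3. Members higher with siRNA 1 than siRNA 2 numbered 0 under TMM, median-ratio scaling and a pseudocount of 5 CPM, against 3, and members lower numbered 0 at 20 CPM, which removes COPZ2. In place of the fold rule, the binomial test on tags called 10 members higher and 23 lower with siRNA 1, 6 and 29 with siRNA 2 and 12 and 7 between the siRNAs. The GGA median with siRNA 1 was -0.13 and turned to 0.039 without GGA1, which has a start matching elsewhere. No paired analysis was possible because each group has 1 library. Depth limits genes near 5 CPM, where 125 tags leave a counting error above 0.1 on the log2 scale.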
